A study of Mus musculus with 48 samples.

Results

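Car4, Enpp2, Enpp3, Ly6a and Emp1 encode proteins of the cell surface or of the space outside the cell, and all 5 were measured among the 22745 genes of the table. They were picked by identifier, as ENSMUSG00000000805, ENSMUSG00000022425, ENSMUSG00000019989, ENSMUSG00000075602 and ENSMUSG00000030208, because earlier results of the same arrays showed very large changes with time or differences between lines. Car4 and Ly6a were picked for their change over the course, Enpp2 for its course in XX against XO, and Emp1 and Enpp3 for the XX minus XO difference at 0 h. Those contrasts are therefore given as descriptions with no test, and so is any difference between the courses of XX and XO. The earlier results also held the 36 h XX minus XO values of Emp1 and Enpp3. RefSeq places the genes, on assembly GRCm38.p6, at chr11:84957754-84966054 (Car4), chr15:54838901-54952789 (Enpp2), chr10:24773814-24836195 (Enpp3), chr15:74994877-74998031 (Ly6a) and chr6:135362550-135383173 (Emp1), so none lies on a sex chromosome.

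The mouse embryonic stem cells came in 3 lines, XX and XO cells both called Pgk12.1 and XY cells called E14, so that XY differs from the others in origin as well as in its chromosomes. All were held in N2B27 medium with an inhibitor of Gsk3, an inhibitor of Mek1 and the cytokine LIF, then seeded on fibronectin in N2B27 medium with Activin A and basic Fgf. Total RNA was hybridised to Affymetrix mouse exon arrays, 18 for XX at 16 times, 19 for XO at 17 times and 10 for XY at 9 times, from 0 to 84 h. XX, XO and XY at 0 h and XX and XO at 36 h have arrays A and B, and every other condition has 1 array. Nothing in the labels tells whether A and B come from separate cultures. The tests at 0 and 36 h therefore measure the spread between arrays, which may in part be technical. Tests over shared times measure the spread of a line difference over time, and tests of a course the scatter around a fitted curve. Each of XX, XO and XY is 1 line, so no test measures the spread between lines with the same chromosomes. Levels are log2 RMA values, a scale on which 1 unit is a doubling of signal, and they are compared between samples of the same gene and never between genes.

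The inhibitors and LIF keep embryonic stem cells naive, a state like the early epiblast, and Activin with Fgf moves them towards epiblast stem cells, which resemble the epiblast after implantation. Surface proteins are often used to tell such states apart. Car4 is a carbonic anhydrase tied to the outer face of the cell membrane by a lipid anchor, where it interconverts carbon dioxide and bicarbonate. Enpp2, or autotaxin, is secreted and makes the signalling lipid lysophosphatidic acid, while its relative Enpp3 sits in the membrane and splits extracellular nucleotides. Ly6a, or Sca-1, is a lipid-anchored protein known in mouse as a marker of blood stem cells. Emp1 is a multi-pass membrane protein of the Pmp22 family. In naive XX cells both X chromosomes are active, and 1 of them is silenced as the cells differentiate.

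The RefSeq promoter table held 3 of the 5 genes, Car4, Enpp3 and Emp1. Their sequences are shown because Car4 and Enpp3 rose in the same medium in which Emp1 ended lower in XX and XY and about level in XO. A further reason is that Emp1 carried the widest line difference of the 5. Each window runs from 250 bases before to 50 bases after an annotated start. Capitals mark matches, on either strand, to TATAAA, to the box CCAAT, to the AP-1 motif TGANTCA or to the Stat motif TTCNNNGAA. The windows are chr11:84957504-84957803 on the plus strand for Car4, chr10:24836146-24836445 on the minus strand for Enpp3 and chr6:135362681-135362980 on the plus strand for the first of the table's entries for Emp1.
Car4: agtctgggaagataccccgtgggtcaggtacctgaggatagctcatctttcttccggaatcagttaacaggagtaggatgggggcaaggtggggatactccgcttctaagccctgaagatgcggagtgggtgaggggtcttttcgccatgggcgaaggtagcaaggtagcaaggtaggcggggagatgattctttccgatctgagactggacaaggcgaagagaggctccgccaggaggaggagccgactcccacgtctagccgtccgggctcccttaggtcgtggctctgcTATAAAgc
Enpp3: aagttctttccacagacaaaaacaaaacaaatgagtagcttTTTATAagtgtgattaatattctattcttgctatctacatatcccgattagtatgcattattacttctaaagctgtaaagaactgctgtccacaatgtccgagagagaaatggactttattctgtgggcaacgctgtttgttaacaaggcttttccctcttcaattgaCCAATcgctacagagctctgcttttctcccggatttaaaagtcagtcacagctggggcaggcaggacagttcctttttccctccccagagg
Emp1: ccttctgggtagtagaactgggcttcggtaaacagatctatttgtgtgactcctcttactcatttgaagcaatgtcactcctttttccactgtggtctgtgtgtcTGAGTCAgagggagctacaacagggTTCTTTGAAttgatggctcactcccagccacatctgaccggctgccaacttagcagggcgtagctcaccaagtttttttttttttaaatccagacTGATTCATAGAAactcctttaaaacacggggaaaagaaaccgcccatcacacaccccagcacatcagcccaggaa
The Car4 window holds TATAAA after the annotated start. The Enpp3 window holds CCAAT ahead of the start and TATAAA on the other strand, read there as TTTATA. The Emp1 window holds the AP-1 matches TGAGTCA and TGATTCA and the Stat matches TTCTTTGAA and TTCATAGAA, and the second of each pair overlap. The other Emp1 entry, chr6:135367243-135367542, is not shown and holds no match to any of these motifs. Each Emp1 window lies inside the RefSeq span of the gene, chr6:135362550-135383173, and not ahead of its first base. Of all 32851 promoter windows of this length, 13.6% hold TATAAA, 37.4% CCAAT, 7.81% the AP-1 motif and 8.30% the Stat motif. These are matches of letters and not shown binding sites.

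**Figure D1:**
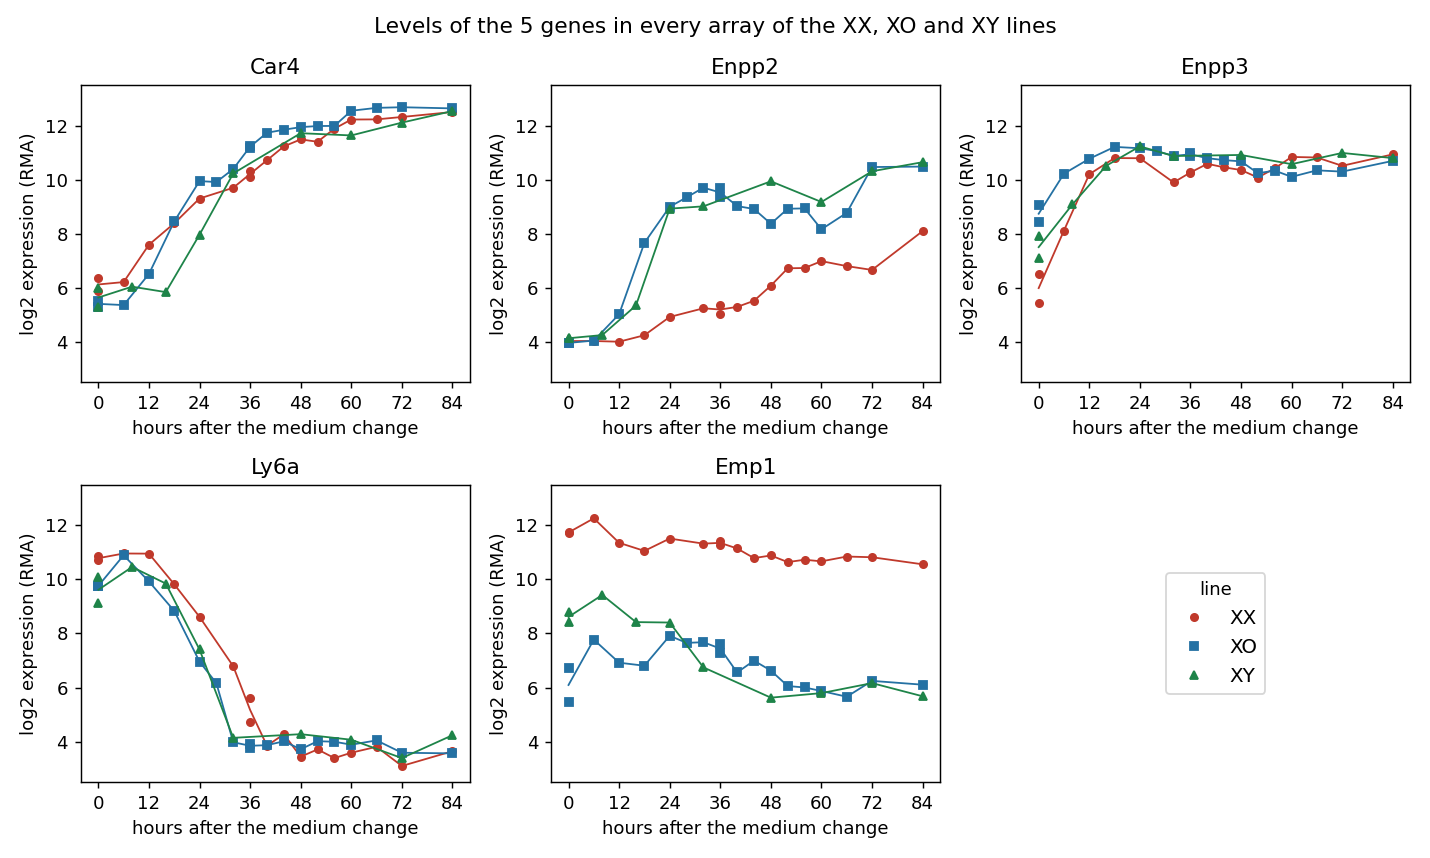
Log2 RMA level of each gene (vertical axis, log2 units) against hours after the medium change (horizontal axis) in XX (circles), XO (squares) and XY (triangles). Each point is 1 array, and lines join the mean of the arrays at each time. Emp1 in XX stays between 10.56 and 12.26, above every XO and XY array, and Enpp2 in XX stays below both other lines from 12 h on.

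Car4, the carbonic anhydrase, rose in all 3 lines and ended at nearly the same level. In XX cells it stood at 5.88 and 6.37 at 0 h, and at 6.21, 7.59, 8.38 and 9.30 after 6, 12, 18 and 24 h. It went on to 9.70 at 32 h, 10.33 and 10.09 at 36 h, 11.49 at 48 h, 12.22 at 60 h and 12.50 at 84 h. The rise in XX thus began between 6 and 12 h and slowed after 60 h. In XO cells Car4 stood at 5.51 and 5.30 at 0 h, 5.36 at 6 h, 6.51 at 12 h, 8.45 at 18 h and 9.94 at 24 h. It then reached 11.18 and 11.25 at 36 h, 11.94 at 48 h, 12.55 at 60 h and 12.63 at 84 h. XO started below both XX arrays and lay above XX from 18 h on. In XY cells it held at 5.98 and 5.30 at 0 h, 6.04 at 8 h and 5.84 at 16 h, then climbed to 7.96 at 24 h, 10.23 at 32 h, 11.72 at 48 h and 12.53 at 84 h. The XY rise was the last to begin. As measured, Car4 at 84 h exceeded its 0 h level by 6.38 log2 units (83.0-fold) for XX, 7.23 (150-fold) for XO and 6.89 (119-fold) for XY. By size these are the changes ranked 2, 1 and 4 among 22745 genes, which is how Car4 was picked.

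The XX minus XO difference of Car4 changed sign over the course. At 0 h the XX minus XO difference was 0.72 (SE 0.25, limma adjusted p = 0.115), which did not pass. XX stayed higher by 0.85 at 6 h and 1.08 at 12 h, was level at 18 h (-0.07), and then lay lower, at -1.01 at 36 h and -1.02 at 40 h, before the gap narrowed to -0.13 at 84 h. At 36 h, XX minus XO was -1.01 (SE 0.25, limma adjusted p = 0.0370). That call was lost without any 1 of the 4 arrays at 36 h (limma adjusted p of 0.0995 to 0.182) and without either XO array at 0 h (0.0563). Over the 15 shared times after 0 h the mean difference was -0.30 (SE 0.14, limma adjusted p = 0.123, lower in XX at 13 of 15 times), which did not pass. It passed without the 6 h or the 12 h arrays (-0.38 and -0.40, limma adjusted p = 0.0307 and 0.0147).

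**Figure D2:**
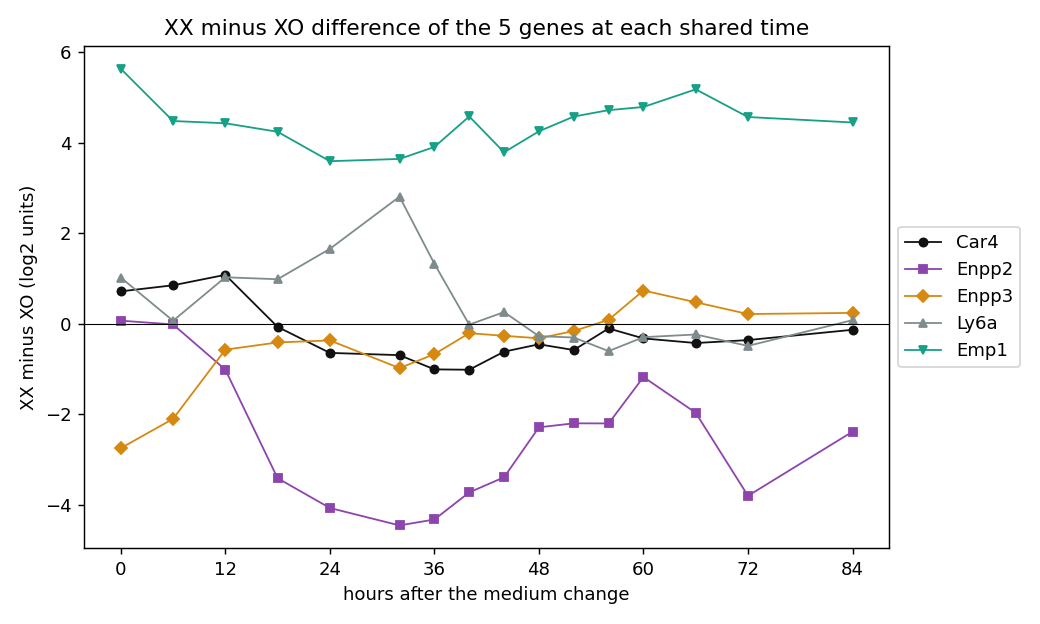
XX minus XO difference in log2 level (vertical axis, log2 units) against hours after the medium change (horizontal axis), with 1 line per gene and arrays of the same line and time averaged. The Emp1 line stays between 3.59 and 5.64, the Enpp2 line falls to -4.46 at 32 h, the Enpp3 line climbs from -2.75 to near 0, and the Ly6a line peaks at 2.81 at 32 h.

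Enpp2, the secreted enzyme autotaxin, rose early in XO and XY and late and less in XX. The 0 h arrays read 4.05 and 4.01 for XX, 3.97 and 3.96 for XO, and 4.14 and 4.13 for XY, with no line contrast at 0 h past the threshold (limma adjusted p of 0.547 to 0.858). Values this low may be near background, which was not used here, so line differences at 0 h and changes from 0 h can be understated. In XO Enpp2 rose to 5.02 at 12 h, 7.66 at 18 h, 9.00 at 24 h and 9.70 at 32 h. The XO level then sank and rose again, from 9.36 and 9.69 at 36 h to 8.37 at 48 h, 8.94 at 56 h, 8.16 at 60 h and 8.77 at 66 h, and to 10.46 at 72 h and 10.48 at 84 h. XY showed the same steep step, from 5.35 at 16 h to 8.93 at 24 h, then 9.01 at 32 h, 9.94 at 48 h, 9.17 at 60 h, 10.31 at 72 h and 10.64 at 84 h. A dip at 60 h is thus seen in both lines, on 1 array each. The XO arrays at 56 and 60 h are among the 5 arrays of narrowest spread across genes. In XX the gene was still at 4.01 at 12 h and 4.25 at 18 h. It reached 4.92 at 24 h, 5.24 at 32 h, 5.02 and 5.38 at 36 h, 6.08 at 48 h, 6.99 at 60 h, 6.66 at 72 h and 8.10 at 84 h. At 84 h XX had not reached the level that XO and XY had at 24 h.

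XX lay below XO at 15 of 15 times after 0 h, with a difference of -0.01 log2 units at 6 h, -3.41 at 18 h, -4.46 at 32 h, -1.18 at 60 h and -2.39 at 84 h. The mean XX minus XO difference was -2.70 ± 1.32 log2 units (SD over 15 times), and at 36 h the difference was -4.33. XX also lay below XY at 6 of 6 shared times after 0 h, with a mean of -3.34. These differences are part of what picked Enpp2 and carry no test. XO minus XY was -0.30 (SE 0.27, limma adjusted p = 0.470), above 0 at 3 and below 0 at 3 of 6 times, and did not pass. Leaving out 1 time gave -0.50 (without 32 h) to -0.05 (without 48 h). Against their own 0 to 84 h change, XO passed 50% at 17.0 h, XY at 20.6 h and XX at 47.9 h. Each of these times rests on the single array at 84 h that sets its end point, and on 0 h values that may be near background.

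Enpp3, the membrane nucleotidase, differed between the lines at the start and came close together by 24 h. It was picked for its 0 h difference, where XX had 5.46 and 6.52, XY 7.92 and 7.09, and XO 8.43 and 9.05. In these values, which picked the gene, XX had the lowest mean and XO the highest. By 6 h XX was at 8.12 and XO at 10.22, and by 8 h XY was at 9.08. At 12 h XX stood at 10.20 and XO at 10.77, and at 18 h at 10.80 and 11.21. XY reached 10.51 at 16 h and 11.23 at 24 h. After that the gene stayed high, and from 24 h on the XX arrays lay between 9.90 and 10.93, XO between 10.10 and 11.16 and XY between 10.57 and 11.23. XO drifted down from 11.21 at 18 h to 10.10 at 60 h, while XX ended at its highest level. The XO array at 60 h is among the 5 of narrowest spread.

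After 0 h, the time that picked the gene, the Enpp3 difference between XX and XO was not called. Its 36 h value was already known, and the 36 h fit also draws its spread from the 0 h arrays. Over 15 times after 0 h it was -0.29 (SE 0.16, limma adjusted p = 0.197), below 0 at 10 and above 0 at 5 times, and without 6 h it was -0.16. It ran from -2.10 at 6 h and -0.57 at 12 h through -0.98 at 32 h to 0.74 at 60 h and 0.24 at 84 h. At 36 h it was -0.67 (SE 0.37, limma adjusted p = 0.340). XX minus XY was -0.34 (SE 0.17, limma adjusted p = 0.183) and XO minus XY -0.26 (SE 0.13, limma adjusted p = 0.210) over 6 times, and neither passed. In XY the gene changed with time (limma F test, adjusted p = 3.60e-13), by a fitted 3.58 (SE 0.28) at 24 h, and 50.2% of all genes changed there. That fit is counted from 0 h and draws its spread also from the 0 h arrays that picked Enpp3, so it is not fully independent of the choice. After 0 h Enpp3 rose in XX by a fitted 1.98 (SE 0.44) from 6 to 84 h (limma F test, adjusted p = 0.00209), where 27.6% of all genes passed. With 1 spline degree of freedom fewer this change was 1.26 (limma F test, adjusted p = 0.0291). As measured, XX stood at 8.12 at 6 h, 10.80 at 18 h and 10.93 at 84 h. Most of the rise thus came before 18 h and leans on the 1 array at 6 h. The XO course after 0 h passed as well (limma F test, adjusted p = 0.0260, with 48.5% of all genes), with a fitted 0.71 (SE 0.33) at 28 h. It did not pass with quantile normalization (adjusted p = 0.0577), and with 1 spline degree of freedom fewer its largest change was -0.62 (limma F test, adjusted p = 0.467). Without the 5 arrays of narrowest spread its adjusted p was 0.162.

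**Figure D3:**
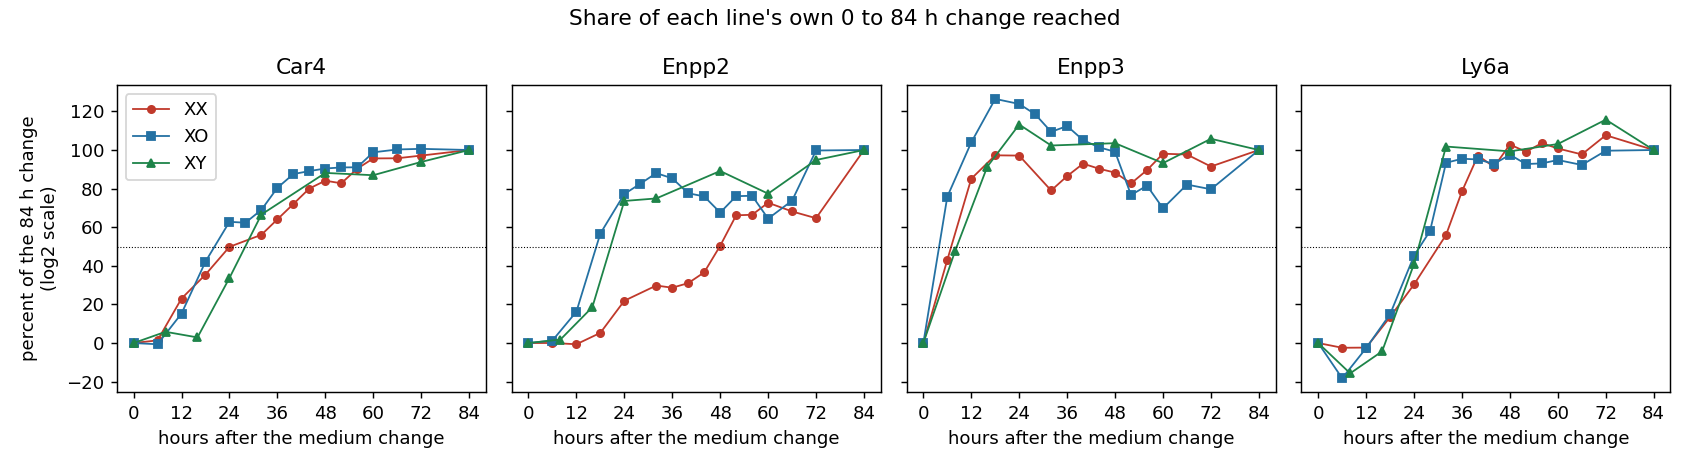
Percent of each line's own 0 to 84 h change on the log2 scale (vertical axis) against hours after the medium change (horizontal axis) for 4 genes, in XX (circles), XO (squares) and XY (triangles). The dotted line marks 50%, which Enpp3 passed before 10 h and Ly6a between 25.2 and 30.1 h in every line. Enpp2 passed it at 47.9 h in XX against 17.0 h in XO.

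Ly6a, the lipid-anchored Sca-1 protein, was high at the start and fell to a low floor in all 3 lines. At 0 h the XX arrays read 10.71 and 10.85, the XO arrays 9.76 and 9.76, and the XY arrays 9.14 and 10.09. The next value in each line was above both of these, at 10.96 at 6 h in XX, 10.89 at 6 h in XO and 10.46 at 8 h in XY, on 1 array each. The fall began next. XX still held 10.95 at 12 h, then 9.82 at 18 h, 8.61 at 24 h, 6.79 at 32 h, 4.74 and 5.60 at 36 h, and 3.85 at 40 h. XO was at 9.92 at 12 h, 8.83 at 18 h, 6.96 at 24 h, 6.16 at 28 h and 3.98 at 32 h. XY went from 9.84 at 16 h to 7.41 at 24 h and 4.14 at 32 h. The floor was reached at 32 h in XO and XY and at 40 h in XX, and from there XX lay between 3.10 and 4.27, XO between 3.57 and 4.05, and XY between 3.39 and 4.28. Background levels were not used here. Values this low may be near them, and the measured changes from 0 to 84 h, -7.13 for XX, -6.19 for XO and -5.38 for XY, can understate the true ones.

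Ly6a passed 50% of its own fall at 25.5 h in XO, 25.2 h in XY and 30.1 h in XX. At 0 h its XX minus XO difference of 1.02 (SE 0.33, limma adjusted p = 0.0961) and its XX minus XY difference of 1.17 (SE 0.33, limma adjusted p = 0.0514) did not pass. The XX minus XO difference passed without either XY array at 0 h, at the same value (limma adjusted p = 0.0499). For XX minus XY the limma adjusted p was 0.0265 with the replicate block and 0.0250 to 0.247 with single arrays left out. The XX minus XO difference was 0.98 at 18 h, 1.66 at 24 h, 2.81 at 32 h and 1.33 at 36 h, and between -0.60 and 0.26 from 40 h on. The 36 h difference of 1.33 (SE 0.33, limma adjusted p = 0.0398) passed, but not after centring the arrays (1.24, adjusted p = 0.0516). It also failed without XX B, XO A or XO B at 36 h (limma adjusted p of 0.215, 0.175 and 0.120), and without any 1 of the 4 XX and XO arrays at 0 h (0.0560 and 0.0627). Averaged over the 15 times it was 0.40 (SE 0.22, limma adjusted p = 0.205, above 0 at 8 times), and 0.23 without 32 h, and over 6 times XX minus XY was 0.28 (limma adjusted p = 0.676) and XO minus XY -0.30 (limma adjusted p = 0.173).

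Emp1, the Pmp22 family membrane protein, set XX cells apart from both other lines at every time measured. It was picked for its 0 h difference, with 11.76 and 11.71 in XX against 6.71 and 5.48 in XO, and XY lay between them at 8.42 and 8.80. In XX it was at 12.26 at 6 h, 11.35 at 12 h, 11.51 at 24 h, 11.42 and 11.28 at 36 h, and 10.88 at 48 h, and ended at 10.56 at 84 h. In XO it was at 7.77 at 6 h, 6.92 at 12 h, 7.91 at 24 h, 7.60 and 7.28 at 36 h, 6.63 at 48 h, 5.66 at 66 h and 6.11 at 84 h. The XO values from 6 to 48 h all lay above its 0 h mean of 6.09, and the later ones lay around it. In XY it was at 9.42 at 8 h, 8.42 at 16 h, 8.40 at 24 h, 6.75 at 32 h, 5.63 at 48 h, 5.79 at 60 h, 6.16 at 72 h and 5.68 at 84 h. XY began above XO and ended within its range, while XX stayed far above both.

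The 0 h arrays picked Emp1, and its 36 h XX minus XO value was already known. The later values describe how long this line difference lasted and are not independent of the choice. After 0 h the 16 XX arrays lay between 10.56 and 12.26 (median 10.97), the 17 XO arrays between 5.66 and 7.91 (median 6.81) and the 8 XY arrays between 5.63 and 9.42 (median 6.46). Every XX array after 0 h was thus above every XO array, as for 1.05% of all genes, and above every XY array, as for 2.77%. Of the 5 genes, Emp1 alone had such a gap in either comparison. On the same arrays XX exceeded XO at 15 of 15 times by 4.35 ± 0.45 log2 units (SD over 15 times; limma SE 0.11, adjusted p = 6.95e-15). Of all genes 16.6% were called higher there, and by size this difference ranked 3. At 36 h it was 3.91 (SE 0.34, limma adjusted p = 4.17e-04), ranked 5. XX exceeded XY at 6 of 6 times by 4.56 (SE 0.25, limma adjusted p = 3.21e-05), where 15.6% of all genes were called higher. XO minus XY over the same times was 0.34 (SE 0.20, limma adjusted p = 0.278; 0.21 to 0.50 with 1 time left out), although XO had been below XY at 0 h (6.09 ± 0.87 against 8.61 ± 0.27, SD, n = 2).

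Emp1 changed with time in each line, and the largest fitted change was a fall each time. These are not the contrasts that picked Emp1. The fit of the XY course is counted from 0 h, however, and draws its spread also from the 0 h arrays that picked the gene, so it is not fully independent of the choice. In XY the course passed (limma F test, adjusted p = 1.47e-10, with 50.2% of all genes), with a largest fitted change of -2.92 (SE 0.34) at 48 h. After 0 h the fitted change was -1.17 (SE 0.41) at 84 h in XX (limma F test, adjusted p = 0.0104, with 27.6% of all genes) and -1.28 (SE 0.28) at 66 h in XO (limma F test, adjusted p = 1.16e-06, with 48.5%). The XO value was -2.08 with 1 spline degree of freedom fewer. Both are counted from 6 h, when XX and XO were near their highest level. As measured, the 84 h level of Emp1 differed from the 0 h level by -1.18 for XX, 0.01 for XO and -2.93 for XY.

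Counted over the 4 genes besides Enpp2, XX minus XO at 36 h was called higher for 2 (Emp1 and Ly6a, against 5.61% of all genes) and lower for 1 (Car4, against 3.36%), or 8.97% in either direction. Over the 15 times after 0 h it was called for 1 of these 4 genes, Emp1, against 29.7%. The median of the 5 genes was -0.29 there and that of all genes -0.0059. XX minus XY over 6 times was likewise called for Emp1 alone of the 4, against 23.2%. Emp1 was picked for its line difference at 0 h, so these calls of Emp1 are not independent of the choice. Over all 5 genes XO minus XY gave 0 calls by limma, against 15.5%, with 1 of 5 at an unadjusted p under 0.05 and 1 of 5 by the exact sign-flip permutation test, Car4 each time. For Car4 the exact sign-flip permutation test gave p = 0.0312, the smallest that 6 times allow, with XO higher at 6 of 6 times by a mean of 0.66 (SE 0.24, limma adjusted p = 0.0921), and by 0.39 without 24 h. At 0 h none of Car4, Enpp2 and Ly6a was called by limma in any line contrast. The shares of all genes called there were 9.15% for XX minus XO, 12.4% for XX minus XY and 9.7% for XO minus XY. At an unadjusted limma p under 0.05 there were 2, 1 and 0 of these 3 genes, in that order. All shares here are at an adjusted p, so the unadjusted and sign-flip counts have no share of all genes to be set against. The XX minus XO and XX minus XY comparisons share the XX arrays. Arrays of 1 course follow each other in time and are not known to be independent cultures, so these p-values may be too small. In RNA from whole cultures, fewer cells with a transcript and less transcript per cell cannot be told apart.

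**Figure D4:**
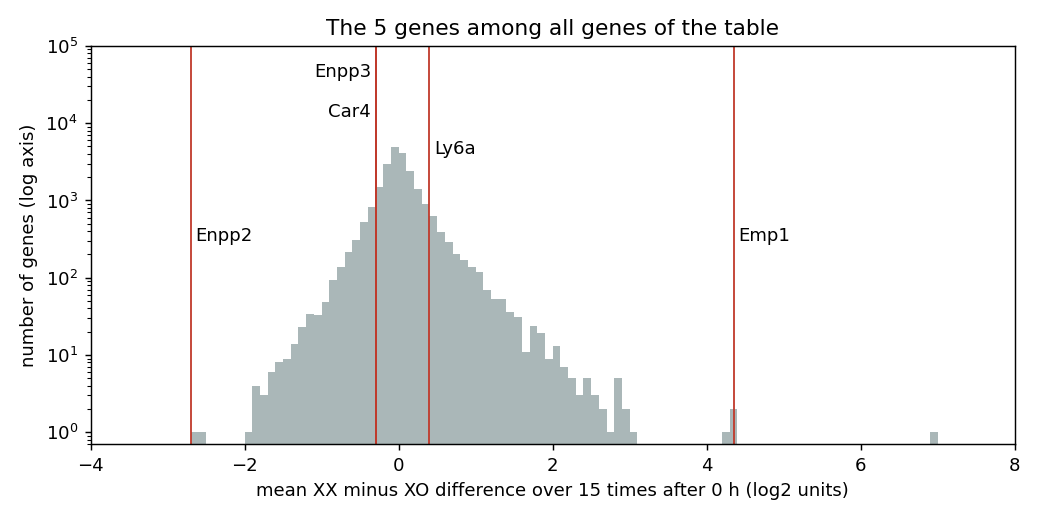
Number of genes (vertical axis, log scale) by mean XX minus XO difference over the 15 shared times after 0 h (horizontal axis, log2 units), over 22745 genes, with a vertical line for each of the 5 genes. Emp1 at 4.35 and Enpp2 at -2.70 lie in the tails, and Car4 at -0.30, Enpp3 at -0.29 and Ly6a at 0.40 lie in the central mass.

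The 5 genes can also be set against each other across arrays, as a description, since all share the time axis and the arrays. Car4 and Ly6a ran opposite to each other, with Pearson's r of -0.949 over 47 cell arrays and -0.960, -0.963 and -0.974 within XX, XO and XY. Car4 and Enpp2 correlated at 0.756 over the 47 arrays, below the 0.911, 0.909 and 0.946 within the lines. Emp1 followed Ly6a within XX (0.814) and XY (0.948) but hardly within XO (0.191). By the same measure, 66 other genes of the table reached r of at least 0.9 with Car4, 8 with Enpp2, 2 with Enpp3, 17 with Ly6a and 23 with Emp1. The closest was ENSMUSG00000054196 for Car4 (0.955), ENSMUSG00000049532 for Enpp2 (0.937), ENSMUSG00000037833 for Ly6a (0.950) and ENSMUSG00000019558 for Emp1 (0.964). The sources used here pair none of these with a symbol.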

How the data were processed

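RNA was measured on 48 arrays, of which 47 are cell samples and 1 is labelled a commercial mouse reference RNA by its source name and entered no comparison. The authors deposited log2 expression values per Ensembl identifier. The submitters' processing notes name RMA, which corrects for background, brings arrays to a common distribution and combines probes, and affy. No version, probe annotation or build is stated, that is, each is not given in the sources used here. Arrays have no read depth, so their number limits the precision. Samples were grouped by line, time and letter from their titles. The members and lists were chosen with earlier results of these data known. The RefSeq tables gave 5 of 5 members a location by symbol but matched 0 of the 22745 identifiers, so the symbols are those of the rule that picked the members, and related gene lists and cell type markers were not used here.

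Tests used R 4.3.3 and limma 3.58.1 (two-sided), and p-values were adjusted by Benjamini-Hochberg over all 22745 genes, with calls at an adjusted p under 0.05. The fit at 0 and 36 h took the 10 arrays with duplicates and had 5 residual degrees of freedom. Line differences after 0 h were intercept fits over differences at shared times, with the 36 h arrays of a line averaged. Courses were natural cubic splines per line with 4 degrees of freedom over 47 arrays, or 3 over the arrays after 0 h. Their value is the largest fitted change from the first time, at a sampled time. A 50% time is the first crossing by linear interpolation, for changes of at least 1 log2 unit. Named genes besides the members are the closest by correlation, for Car4 and Enpp2 as rising and Ly6a and Emp1 as falling members. In XO, Emp1 ended level with its start and did not fall. A test of the difference between the XX and XO courses was planned but is not reported, because it uses the values that picked the genes. The fits were tested on simulated data. Alternatives were array centring, quantile normalization, a filter on dim genes, the replicate block, other spline degrees of freedom, left-out arrays and times, a sign-flip test and, chosen after seeing the data, leaving out the 5 arrays of narrowest spread. These 5 were XO at 12, 52, 56 and 60 h and XY at 32 h.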

Additional observations from a re-analysis of the deposited data

How the results depend on the processing

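Of 408 alternative values for 32 results on the members, 376 kept direction and call, and 21 results did so in every alternative run. Among these was Emp1 in XX minus XO at 36 h and after 0 h, which is not independent of how Emp1 was picked. The filter on dim genes leaves out Ly6a. Centring moved the median of all genes from 0.058 to -0.051 for XX minus XO and from 0.088 to -0.071 for XX minus XY at 0 h, and from 0.084 to -0.080 and 0.075 to -0.064 for XX and XO minus XY after 0 h, shifts far below the called Emp1 differences. The median largest fitted change moved from 0.242 to -0.210 in the XY course, and from 0.169 to -0.209 and 0.198 to -0.253 in XX and XO after 0 h. Centring also turned Enpp2 in XX minus XO at 0 h to -0.040, which was not called, and ended the 36 h call of Ly6a (1.24). Quantile normalization ended the Enpp3 call in XO after 0 h (0.60), as did leaving out the 5 arrays of narrowest spread (0.74), which also turned Ly6a in XX minus XY to -0.13 and brought Car4 in XX minus XO after 0 h past the threshold (-0.42). With 1 spline degree of freedom fewer, Enpp3 in XO turned to -0.62. Except where stated, the cause was not tested.

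Leaving out 1 of the 10 duplicated arrays gave -1.13 to -0.89 for Car4 and 0.90 to 1.75 for Ly6a at 36 h. At 0 h it gave 0.95 to 1.09 (XX minus XO), 0.70 to 1.64 (XX minus XY) and -0.33 to 0.62 (XO minus XY) for Ly6a, and -0.58 to 0.11 for Car4 in XO minus XY. Some of these leave the value as it is and move only the shared spread. Leaving out 1 time gave -0.40 to -0.25 for Car4 in XX minus XO and -0.20 to 0.50 for Ly6a in XX minus XY, the negative value without 32 h. It also gave -0.36 to -0.16 for Enpp3 and 0.23 to 0.47 for Ly6a in XX minus XO, -0.46 to -0.21 for Enpp3 in XX minus XY, and -0.31 to -0.17 for Enpp3 and 0.39 to 0.77 for Car4 in XO minus XY, none of which changed a call. The sign-flip permutation test called Car4 in XO minus XY (0.66, exact p = 0.0312).

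Numbers of genes called ran, with 1 array left out, from 689 to 1829 and 1319 to 2520 for XX minus XO and XX minus XY at 0 h, 535 to 2406 for XO minus XY and 801 to 2106 at 36 h. After 0 h, with 1 time left out, they ran from 3281 to 4404 (XX minus XY) and 1418 to 2879 (XO minus XY). The main counts were 2082, 2828, 2206, 2041, 5275 and 3529. XX minus XY after 0 h had 3478 calls with the filter on dim genes, which tests fewer genes, and 2094 without the 5 arrays of narrowest spread, where XO minus XY had 1492. Fewer arrays or times were then in the fit.

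The letters A and B are not said to mark a shared batch, and A minus B differences correlated between conditions at -0.134 to 0.189. With the replicate block, Ly6a in XX minus XY at 0 h passed (1.17, limma adjusted p = 0.0265), no other member's call changed, and 1832 genes were called at 36 h.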

Other observations

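On the 1 array whose source name gives a commercial mouse reference RNA, but whose description names cells at 84 h, Emp1 stood at 12.67, above every cell array, and Enpp2 at 8.81, above every XX array. Ly6a was at 8.89, Enpp3 at 7.14 and Car4 at 5.45 there. The Car4 value lies within the range of the 0 h cell arrays.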
